A study of Rattus norvegicus and Mus musculus with 3 samples.

Results

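The genes described here are 10 members of the RGS family, the regulators of G protein signalling: Rgs2, Rgs3, Rgs4, Rgs6, Rgs7, Rgs8, Rgs10, Rgs14, Rgs16 and Rgs17. They were found by symbol, ignoring case, and all 10 were listed in each of the 3 tables, among 30438 genes in each rat table and 34714 in the mouse table. The set was picked by a measured value, the opposite 2VO to Sham ratios of Rgs4 and Rgs14, so those ratios and every other ratio of that contrast are descriptions and are given without a test. Hippocampal RNA was sequenced in 3 libraries, 1 for each group. The rat libraries came from animals of genotype WT aged 3 to 4 months, 1 labelled Sham and 1 labelled 2VO; 2VO commonly stands for ligation of both common carotid arteries, used as a model of vascular dementia, and Sham for the operation without it. The mouse library came from an animal of genotype WT in the 3xTg-AD line, aged 6 months, which had no counterpart of its own species among the libraries used here. Whether each library came from 1 animal or from a pool is not stated in the labels.

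A G protein carries a signal from a receptor while its alpha subunit holds GTP. RGS proteins bind that active alpha subunit through their RGS box and speed GTP hydrolysis, which shortens the signal. In brain they act mainly on the Gi/o and Gq classes, downstream of muscarinic, metabotropic glutamate, dopamine and opioid receptors. The family is divided into subfamilies: R4 proteins are mostly small, R7 proteins work only when paired with the G beta subunit Gnb5, the R12 subfamily includes the multidomain proteins Rgs12 and Rgs14, and RZ proteins carry a cysteine string.

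The unit of the deposited values is not stated, so a gene is compared with itself between libraries. Rank percentiles, summed levels and ratios of 1 gene to another also depend on that unit, and are compared only between libraries. The summed values ran from 268889.5 in the mouse to 333940.5 in 2VO, and the read depth behind them is unknown. With 1 library for each group no difference has a replicate check and no p-value is given. A gene was counted as measured when its mean over the rat libraries was at least 1 unit, which held for 13550 genes and for all 10 RGS members. Log2 ratios below set 2VO over Sham after adding 1 unit to each value, so differences of low genes are understated; those described as plain ratios have nothing added.

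The sequences just before the start sites of the 4 members that lay furthest from Sham, Rgs4, Rgs6, Rgs10 and Rgs14, are shown so that the promoters of 2 genes higher in 2VO can be set beside those of 2 lower ones. Each is the 250 bases before the start that RefSeq lists for the gene on the rat assembly GRCr8, a different build from the mRatBN7.2 named in the submitters' processing notes. All 10 members had an entry. The windows are chr13:84475885-84476134 on the minus strand for Rgs4, chr6:107996245-107996494 on the plus strand for Rgs6, chr1:192418078-192418327 on the minus strand for Rgs10 and chr17:9268234-9268483 on the minus strand for Rgs14. Capitals mark matches, on either strand, to TGACG, the core of the cAMP response element, to TGANTCA, the AP-1 site, to GGGCGG, the GC box, to CCAAT, the box bound by NF-Y, or to TATAAA, the box bound by TBP.

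Rgs4: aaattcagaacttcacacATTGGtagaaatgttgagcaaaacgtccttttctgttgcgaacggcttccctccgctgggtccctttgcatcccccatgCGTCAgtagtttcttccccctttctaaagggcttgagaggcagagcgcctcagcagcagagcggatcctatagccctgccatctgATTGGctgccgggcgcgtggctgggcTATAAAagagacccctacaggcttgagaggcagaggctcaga

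Rgs6: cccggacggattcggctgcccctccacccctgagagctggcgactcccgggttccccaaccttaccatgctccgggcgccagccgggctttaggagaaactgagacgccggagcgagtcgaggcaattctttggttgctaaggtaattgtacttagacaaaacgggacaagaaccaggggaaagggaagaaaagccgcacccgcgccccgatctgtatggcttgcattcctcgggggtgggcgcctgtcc

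Rgs10: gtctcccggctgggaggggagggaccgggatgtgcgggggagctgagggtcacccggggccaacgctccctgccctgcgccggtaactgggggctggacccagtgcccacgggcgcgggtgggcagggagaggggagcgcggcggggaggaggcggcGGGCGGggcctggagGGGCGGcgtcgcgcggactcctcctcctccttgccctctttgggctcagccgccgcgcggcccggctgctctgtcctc

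Rgs14: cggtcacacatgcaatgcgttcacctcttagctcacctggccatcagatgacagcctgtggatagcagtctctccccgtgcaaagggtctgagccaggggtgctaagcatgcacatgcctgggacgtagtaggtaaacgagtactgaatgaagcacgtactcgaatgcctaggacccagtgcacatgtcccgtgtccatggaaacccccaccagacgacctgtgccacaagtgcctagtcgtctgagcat

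The Rgs4 window held a TATA box that began 42 bases before the start, 2 CCAAT boxes and 1 cAMP response element core. The Rgs10 window held 2 GC boxes, and the Rgs6 and Rgs14 windows held no match to any of these letters. Across the 10 members the core was present in 3 (Rgs2, Rgs3 and Rgs4), against 18.2% of 33469 RefSeq promoter windows of the same length. The GC box was present in 6 members, Rgs2, Rgs3, Rgs7, Rgs10, Rgs16 and Rgs17, against 30.5% of all windows. The CCAAT box was present in 4, Rgs2, Rgs4, Rgs8 and Rgs16, against 34.0%, and the TATA box in Rgs3 and Rgs4, against 12.9%. The AP-1 site was found only for Rgs17, against 6.34%, and the full element TGACGTCA, which contains the core, in 0 of 10 members and 1.59% of all windows. CpG pairs per window ran from 5 in Rgs8 to 35 in Rgs7, with 10 in both Rgs4 and Rgs14 and a median of 5 over all windows. A match is a string of letters and no measured binding. Of the 10 members, 5 lie on rat chromosome 13: Rgs2, Rgs4, Rgs7, Rgs8 and Rgs16. In the RefSeq order of protein-coding genes Rgs8 and Rgs16 are next to each other, and Rgs4 is next to Rgs5.

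The R4 members were the genes with the widest span of ratios. Rgs4, a small regulator of Gq and Gi/o signals that is abundant in cortical and hippocampal neurons, was 10.2 units in Sham and 23.0 in 2VO. That is a plain ratio of 2.26 and a log2 ratio of 1.10, higher than in 99.9% of measured genes. In the mouse it was 41.0, so Sham was the lowest of the 3 libraries. Rgs16, a small regulator known as an inducible gene and expressed in thalamus, was 2.22 in Sham, 3.30 in 2VO and 2.74 in the mouse, with a log2 ratio of 0.42. The mouse value lay between the rats. Rgs8, best known from cerebellar Purkinje cells, was 17.5 in Sham, 21.1 in 2VO and 18.1 in the mouse, a log2 ratio of 0.26. Rgs3, which has long and short forms that a gene-level value cannot separate, was 7.57, 8.96 and 4.11 in the same order, a log2 ratio of 0.22. Rgs2, a Gq-selective regulator that neuronal activity can induce, was nearly equal in the rats, at 14.0 in Sham and 13.8 in 2VO, and was 8.42 in the mouse. Its log2 ratio of -0.02 made it the member closest to 0.

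**Figure D1:**
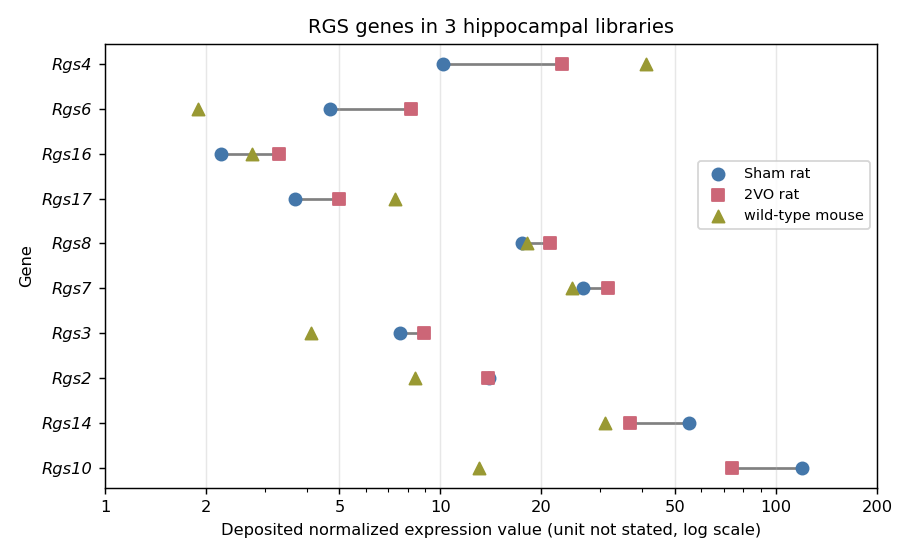
Deposited value of each RGS gene (x axis, log scale, unit not stated) in the Sham rat (circles), 2VO rat (squares) and wild-type mouse (triangles), 1 library each, with a line joining the rats. Rgs4 runs from 10.2 in Sham to 23.0 in 2VO and Rgs10 from 119 in Sham to 73.9 in 2VO, while the Rgs2 symbols of the rats nearly coincide.

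Both R7 members were higher in the 2VO library. Rgs6, which in neurons and heart limits Gi/o signals to potassium channels, was 4.68 in Sham, 8.14 in 2VO and 1.89 in the mouse, a log2 ratio of 0.69. Rgs7, the widely expressed neuronal member of this subfamily, was 26.6, 31.5 and 24.7, a log2 ratio of 0.24. The ratio of Rgs6 to Rgs7 within a library, which no scaling of the library can alter, was 0.176 in Sham and 0.258 in 2VO. Their obligate partner went the other way: Gnb5 was 49.1 in Sham, 35.2 in 2VO and 39.9 in the mouse, a log2 ratio of -0.47 that was lower than all but 1.69% of measured genes. The ratio of Rgs7 to Gnb5 was therefore 1.65 times as large in 2VO as in Sham, and that of Rgs6 to Gnb5 2.43 times. Rgs7bp, which anchors R7 complexes at the membrane, was 48.2 in Sham and 41.7 in 2VO. Gpr158, a receptor that recruits Rgs7, was 20.3 and 24.0.

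Both R12 members were lower in the 2VO library. Rgs10, a small regulator of Gi signals found in microglia and in neurons, was 119 units in Sham, 73.9 in 2VO and 13.0 in the mouse. The rats differed by a plain ratio of 1.61, Sham to 2VO, and a log2 ratio of -0.68, at percentile 0.613 of the measured genes. Rgs14, a scaffold that joins an RGS box to Ras-binding and GoLoco domains and is enriched in CA2 pyramidal cells, was 55.0 in Sham, 36.7 in 2VO and 30.9 in the mouse. Its plain ratio of Sham to 2VO was 1.501 and its log2 ratio -0.57, at percentile 1.02. The ratio of Rgs10 to Rgs14 was 2.17 in Sham and 2.02 in 2VO. The ratio of Rgs4 to Rgs14 was 0.185 in Sham and 0.627 in 2VO, 3.39 times as large, which restates the choice of the set in a form that no scaling of the libraries can alter. Rgs17, the RZ member, which acts on Gi/o and Gz, was 3.68 in Sham, 4.99 in 2VO and 7.30 in the mouse, a log2 ratio of 0.35.

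In counts, 7 of the 10 members were higher in 2VO and 3 lower, with a median log2 ratio of 0.25 against 0.04 over all 13550 measured genes. The G beta gene Gnb4, with a log2 ratio of 0.00099, stood at percentile 41.5, so most measured genes were higher in 2VO as deposited. Counts of higher and lower genes, here and in the lists below, are to be read beside that. The smallest size counted, here called a small difference, was a ratio of 5 to 4 in either direction, a log2 ratio of 0.321928. By it 4 members were higher, Rgs4, Rgs6, Rgs16 and Rgs17, where 8.1% of measured genes were that much higher, and 2 were lower, Rgs10 and Rgs14, where 4.58% were that much lower. At 1.5-fold the members were Rgs4 and Rgs6 higher, against 1.51% of measured genes, and Rgs10 lower, against 0.967%; Rgs14 lay just short of it with 1 unit added and just past it as a plain ratio. At 2-fold Rgs4 was the 1 member higher, against 0.244%, and 0 members were lower, against 0.199%. Since the set was picked on this contrast, nothing is read from these counts. Of all measured genes with at least a small difference 63.9% were higher in 2VO. That share was 42.1% after scaling to equal upper quartiles, 48.5% after median-of-ratios scaling, 53.2% after scaling to equal sums without the 50 most abundant genes and 50.8% after centring on the trend with expression. With upper-quartile scaling, median-of-ratios scaling or that centring 3 members were higher by at least a small difference, since Rgs17 fell short.

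**Figure D2:**
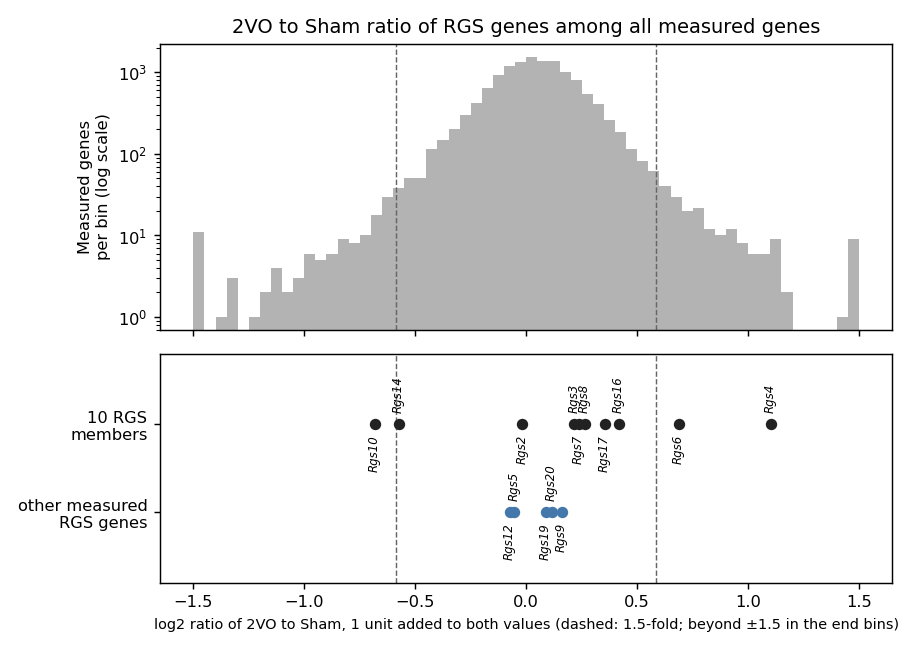
Upper panel, number of measured rat genes (log scale) by log2 ratio of 2VO to Sham; lower panel, the same ratio for the 10 RGS members and the 5 other measured RGS genes, with dashed lines at 1.5-fold. Rgs4 at 1.10 and Rgs10 at -0.68 lie in the tails, and the other RGS genes lie between -0.07 and 0.16.

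The measured RGS genes outside the set lay closer together than its members. Since the set was picked on this contrast, nothing is read from that. Of the 11 RGS genes outside the set, 10 were listed in the rat tables and 5 were measured, with log2 ratios from -0.07 to 0.16. Rgs12, the third R12 gene, was 9.75 in Sham and 9.21 in 2VO, nearer to equal than Rgs10 and Rgs14. Rgs5, a pericyte gene and the neighbour of Rgs4, was 9.13 and 8.76, so the neighbours differed in ratio. Rgs9, an R7 gene known from striatum, was 1.98 and 2.33. The RZ genes differed little: Rgs19 was 11.3 in Sham and 12.1 in 2VO, and Rgs20 was 6.93 and 7.60. By subfamily the median log2 ratio was 0.24 over the 6 measured R4 genes and 0.24 over the 3 R7 genes. It was 0.12 over the 3 RZ genes and -0.57 over the 3 R12 genes. The R12 median is the ratio of Rgs14 itself, and the R4 genes include Rgs4, so these medians partly restate the choice of the set. Below 1 unit on average were Rgs1, at 0.322 in Sham and 0.0393 in 2VO, Rgs13, at 1.20 and 0.593, and Rgs18, Rgs21 and Rgs22. Rgs11, an R7 gene, was 14.2 units in the mouse and its symbol was not found in the rat tables.

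The genes around the RGS proteins in the pathway were counted in the same way. Of 13 measured G alpha subunit genes, the GTPases on which RGS proteins act, 7 were higher and 6 lower in 2VO. Their median log2 ratio was 0.07, and 2 were higher by at least a small difference, against 8.1% of measured genes. These were Gnas, which encodes the stimulatory subunit, at 259.8 in Sham and 353 in 2VO, and Gnai1, an inhibitory subunit, at 43.0 and 58.0. Gnao1, at 109.7 and 137.4, and Gnal, at 12.3 and 15.4, passed that size only as plain ratios, at 1.252 and 1.258. The lowest ratio was that of Gna15, a Gq-class subunit, at 2.44 and 1.85. The 13 measured beta and gamma subunit genes had a median of 0.14, with 10 higher and 3 lower. By at least a small difference 2 were higher, Gng4 and Gng3, against 8.1% of measured genes. By that size 1 was lower, Gng10, against 4.58%. Gng4 had the highest ratio, at 2.74 and 4.64, and Gng10 the lowest, at 82.2 and 59.0. Receptor kinases and arrestins, which end signals at the receptor instead, were 4 higher and 3 lower among 7 measured. Of these 0 differed by at least a small difference, against the same shares of measured genes. Arrb2 was 21.96 and 24.4 and Grk4 was 1.37 and 1.08. Among 13 measured effector genes the median was 0.01, with 7 higher and 6 lower. The 1 effector past a small difference in either direction was Adcy1, a calcium-stimulated adenylyl cyclase, at 189.6 in Sham and 129 in 2VO. Of all measured genes 4.58% were that much lower and 8.1% that much higher. The highest effector ratio was that of Plcb4, a Gq-activated phospholipase, at 1.85 and 2.43. The medians near 0 have no settled sign: with upper-quartile scaling the effector median was -0.06, that of the kinases and arrestins -0.05 against 0.02 as reported, and that of the alpha subunits -0.0044. With median-of-ratios scaling, equal sums without the 50 most abundant genes or lowess centring the effector and kinase medians were also below 0, the effectors at -0.04, -0.02 and -0.03. A further list held genes outside the RGS family with GoLoco motifs, which hold inactive alpha subunits as Rgs14 does. In it 3 of 4 measured were lower: Gpsm3 was 1.54 and 1.04, and Gpsm1 was the higher one at 9.63 and 10.8.

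**Figure D3:**
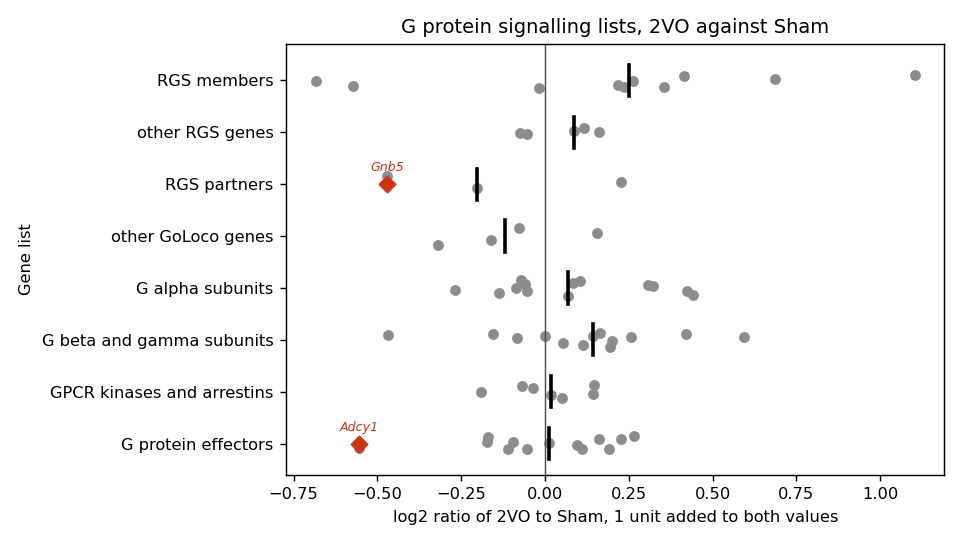
Log2 ratio of 2VO to Sham (x axis) for each measured gene of 8 G protein signalling lists (dots), with the list median as a bar and the list members Gnb5 and Adcy1 marked as diamonds. The RGS members span -0.68 to 1.10, and the G alpha subunits span -0.27 to 0.44.

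Marker genes of cells and regions that express RGS genes were read beside them. In bulk tissue fewer cells of a type and less RNA in each cell cannot be told apart. The microglial list mostly moved with Rgs10: 10 of 12 markers stood below Sham in 2VO. By at least a small difference 4 were lower, against 4.58% of measured genes, and 1 was higher, against 8.1%. The median log2 ratio was -0.29. The summed level was 324 in Sham, 269 in 2VO and 190.0 in the mouse, with 0 markers at 0. Aif1 had the lowest ratio, at 23.8 in Sham and 13.5 in 2VO, and P2ry12 the highest, at 5.49 and 8.83. The part of microglia in the Rgs10 difference was not tested. The neocortical list moved in part with Rgs4: 7 of 9 measured markers were higher in 2VO. At least 1.5-fold higher were 4, against 1.51% of measured genes, and 0 were that much lower, against 0.967%. The summed level of the 10 markers was 118 in Sham, 138 in 2VO and 96.4 in the mouse, with 0 markers at 0. Lamp5 was 12.2 in Sham, 27.3 in 2VO and 12.1 in the mouse, whereas Rgs4 was higher in the mouse than in either rat. Bcl11b went the other way, at 45.1 and 30.3. The part of cortical tissue in the Rgs4 difference was not tested.

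The CA2 list, read beside Rgs14, was divided. Of 9 measured CA2 markers 4 were higher and 5 lower, 0 were lower by at least a small difference, the median was -0.01 and the summed level was 243 in Sham, 229 in 2VO and 184 in the mouse. Fgf2 had the lowest ratio, at 3.79 and 3.08, and Stard5 the highest, at 2.56 and 4.63. Necab2 was 93.8 in Sham and 85.1 in 2VO, and Pcp4 was 67.8 and 68.9. Avpr1b, a vasopressin receptor used to define CA2, was listed at 0 in both rats. Markers of CA1, CA3 and the dentate gyrus were lower in 6 of 9 measured genes. By at least a small difference 3 were lower, against 4.58% of measured genes, and 1 was higher, against 8.1%. The list summed to 456 in Sham, 383 in 2VO and 286 in the mouse. Iyd was listed at 0 in 2VO. Wfs1, a CA1 gene, was 169 and 111, a log2 ratio of -0.60 beside that of -0.57 for Rgs14, and Calb1 was 25.6 and 35.0. Markers of the labelled tissue were present in part: 9 of the 12 in this list were measured. Prox1 of the dentate gyrus was 17.2 in Sham, 14.8 in 2VO and 17.8 in the mouse. Lct was 0.0104 in Sham, 0.0128 in 2VO and 7.03 in the mouse, and Dsp was 1.29, 0.649 and 6.65. Iyd was 0.044 in Sham and 1.46 in the mouse.

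The remaining lists hold markers of other cells and regions, and of neuronal activity. Immediate early genes, which share activity-dependent induction with Rgs2, were 8 higher and 4 lower among 12 measured, from Npas4 at 0.502 in Sham and 3.11 in 2VO to Btg2 at 12.7 and 6.84, while Rgs2 was nearly equal. Mural cell genes, which mark the pericytes that express Rgs5, were 3 higher and 3 lower among 6 measured, with Tagln at 5.13 and 7.99 and Notch3 at 1.59 and 1.13. Thalamic genes, read beside Rgs16, were 6 higher and 1 lower among 7 measured; Tnnt1 was 4.19 and 6.78 and Prkcd was 2.07 and 1.79. Striatal genes, read beside Rgs9, were 1 higher and 4 lower among 5 measured, with Penk at 9.78 and 13.4 and Drd1 at 1.41 and 1.16. Oligodendrocyte markers were higher in 10 of 10, summing to 3870.4 in Sham and 4863 in 2VO, with Ermn at 32.1 and 51.1 and Mog at 55.0 and 62.6. Of 4 measured choroid plexus markers 3 were higher; Ttr was 0.434 and 4.75, and Kcne2 was 1.66 and 1.52. The part of white matter or choroid plexus content in the RGS ratios was not tested.

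**Figure D4:**
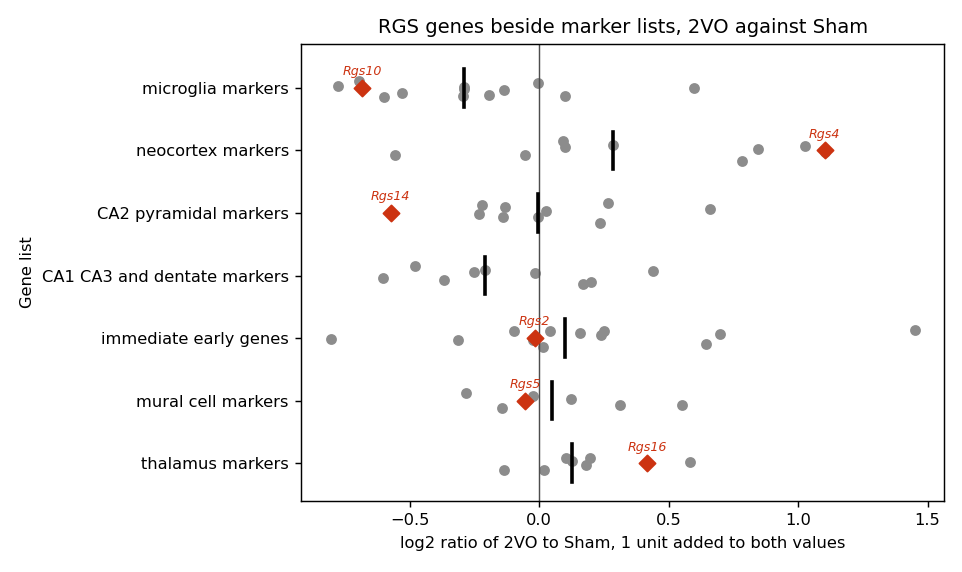
Log2 ratio of 2VO to Sham (x axis) for the measured genes of 7 marker lists (grey dots), with list medians as bars and, as red diamonds, the RGS gene read beside 6 of the lists. Rgs10 at -0.68 lies among the lower microglial markers, Rgs4 at 1.10 beside the highest neocortical marker, and Rgs14 at -0.57 below every measured CA2 marker.

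Genes with like pairs of rat values were sought by distance over log2 values in the 2 rat libraries. The search covered measured genes and left out symbols that are model identifiers. Closest to Rgs4 were Mrpl42 at 10.5 in Sham and 22.9 in 2VO, Txnip at 11.96 and 21.5, and Rab3c at 10.2 and 18.8. Those closest to Rgs14 were Nbl1 at 55.2 and 35.0, Cxcl12 at 56.1 and 39.3, and Gltscr2 at 51.0 and 37.6. With 2 libraries this likeness means only that both levels were similar.

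In the wild-type mouse the members stood at other levels than in the rats, and species, age and separate processing of the tables cannot be told apart. Gapdh, at 6.36 in the mouse and 1031 in Sham, shows how far single values can lie apart across the tables; it was chosen after its values were seen. Levels were therefore also given as rank percentiles among 11457 shared symbols. Rgs10 stood at percentile 61.1 in the mouse but 96.4 in Sham and 93.0 in 2VO, and 0.498% of shared symbols had a mouse to Sham log2 ratio as far from 0. Rgs4 stood at percentile 88.7 in the mouse against 49.9 in Sham and 73.9 in 2VO, with 3.12% of symbols as far from 0. Rgs14 stood at 84.2, 90.6 and 84.1, so the mouse rank was close to that of 2VO. Rgs7 and Rgs8 kept like ranks in all 3 libraries, at 79.7, 78.3 and 81.3 for Rgs7 and 71.1, 67.3 and 71.9 for Rgs8. Rgs2, Rgs3 and Rgs6 ranked lower in the mouse, at 46.1, 25.4 and 10.9, than in Sham, at 60.4, 40.6 and 26.9. Rgs17 ranked higher in the mouse, at 41.8 against 21.4 in Sham and 27.5 in 2VO. Rgs16 lay between, at 16.5 in the mouse against 12.01 in Sham and 18.3 in 2VO. Percentiles of the low genes depend on which symbols are ranked. Among all 15511 shared symbols above 0 in any library Rgs3 stood at 44.9 in the mouse and 56.2 in Sham, and Rgs6 at 34.0 and 46.0. In the same ranking Rgs16 stood at 38.3 in the mouse, with 35.0 for Sham and 39.7 for 2VO, and Rgs17 at 57.0, with 41.9 and 46.5.

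**Figure D5:**
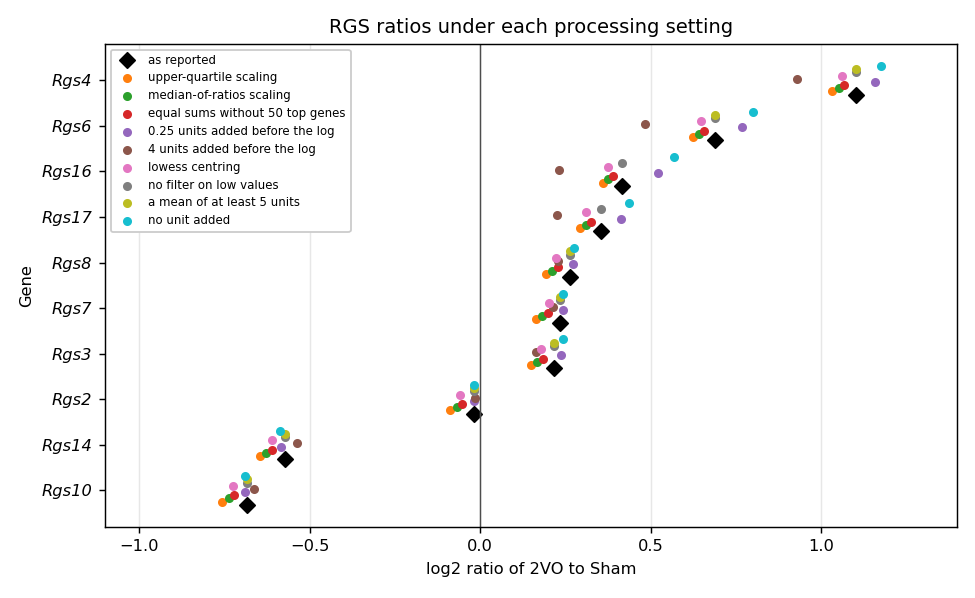
Log2 ratio of 2VO to Sham (x axis) of each RGS gene as reported (diamonds) and under 9 other processing settings (dots), or 8 for Rgs16 and Rgs17, which lie below the filter at a mean of 5 units. Each gene keeps its side of 0 under these settings, and the widest spread is in the low genes Rgs16 and Rgs6, where the number of units added before the log matters most.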

How the data were processed

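RNA from hippocampus was sequenced for 1 wild-type mouse, 1 Sham rat and 1 2VO rat library, grouped by their titles. Each deposited table gives 1 normalized expression signal for each gene symbol, made by the authors, in a unit that is not stated. The submitters' processing notes name fastp 0.21.0, HISAT2 2.1.0, DESeq2, GRCm39 and mRatBN7.2 without roles; no label or header states the quantifier, annotation or filters. Values were used as deposited, and depth is unknown.

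For each gene that averaged 1 unit or more in the rats, 2VO was divided by Sham after adding 1 unit to both, on a log2 scale. With 1 library in each group no test was run. Counts past a ratio of 5 to 4 and past 1.5-fold and 2-fold were set beside the share of all measured genes. Genes named are all 10 members, the measured RGS genes and partners, and the 3 genes nearest to Rgs4 and Rgs14. Named too are the highest and lowest ratio of each further list and marker genes read beside a member. The others were chosen after their values were seen. Members and lists were chosen with earlier results of these data known. Promoter windows came from RefSeq (GRCr8). The calculation was tested on simulated data with planted differences larger than that of any member. It does not show how well smaller differences are recovered. Alternatives were other scalings, 0.25 or 4 units added, lowess centring (span 0.3), and other filters. Python 3.11.15, pandas 2.3.3, numpy 2.4.6 and statsmodels 0.14.6 were used.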

Additional observations from a re-analysis of the deposited data

How the results depend on the processing

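All 10 RGS members kept the sign of their 2VO to Sham ratio under the alternatives run. Most values moved by less than 0.183, the robust SD of the log2 ratio over all measured genes. That SD is a spread across genes between single libraries, used only as a tolerance, and does not measure the spread of replicates. With 0.25 to 4 units added, and across the scalings, centring and filters, Rgs4 ran from 0.93 to 1.16, Rgs6 from 0.49 to 0.77, Rgs10 from -0.76 to -0.66 and Rgs14 from -0.65 to -0.54. With 4 units added before the log Rgs6 was 0.49 and Rgs16 was 0.23, and the members higher in 2VO numbered 2 past a ratio of 5 to 4, 1 at 1.5-fold and 0 at 2-fold, against 4, 2 and 1 as reported. With a filter at a mean of 5 units, 2 members were higher by at least a ratio of 5 to 4, since Rgs16 and Rgs17 lie below that filter. Members at least 1.5-fold lower numbered 2 instead of 1 with upper-quartile scaling, median-of-ratios scaling, equal sums without the 50 most abundant genes or lowess centring, because Rgs14 then passed. With the filter at 5 units the median of the GoLoco genes outside the RGS family was 0.04 against -0.12. The neocortical list median was then 0.78 against 0.29, and the mural list median was 0.55 against 0.05 with fewer genes left. Without a filter the choroid plexus median was 0.12 against 0.51. No unit added before the log, chosen after seeing the data, gave 1.18 for Rgs4, 0.80 for Rgs6, -0.69 for Rgs10 and -0.59 for Rgs14. No paired analysis was possible because each group holds 1 library, and no library could be left out. Unknown depth limits the low genes most.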
